A study of Homo sapiens with 16 samples.

Results

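The genes described here are 9 targets of the transcription factor NRF2 that act in antioxidant defense: SLC7A11, GCLC, GCLM, TXNRD1, SRXN1, NQO1, HMOX1, SQSTM1 and OSGIN1. They were chosen by symbol as redox and detoxification genes, with their counts in the same 8 libraries in view, and all 9 were found among the 34228 genes of the count table. Their responses are therefore given as a description, with log2 fold changes and standard errors but without p-values. Where they are counted at an FDR threshold, the counts are description too and are not read as a test. The libraries come from 451Lu-R and 1205Lu-R, 2 human melanoma lines with acquired resistance to BRAF inhibition (BRAFi-R). Each line received 2.5 μM corin, a dual inhibitor of HDAC1/2 and LSD1 in the CoREST repressor complex, or its vehicle DMSO for 24 hours. Each of the 4 groups had 2 libraries. Both lines were derived by growth in rising doses of the BRAF inhibitor PLX4032 and were maintained in 5 μM PLX4032. The authors list corin and DMSO as treatments separate from PLX4032, and describe their reference as without either drug. When the maintenance drug was withdrawn was not given in the sources used here. The samples that received PLX4032 have no counts in the tables used here and were not analysed.

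NRF2, encoded by NFE2L2, is held at low levels by KEAP1, an adaptor that hands it to a CUL3-RBX1 ubiquitin ligase. Oxidants and electrophiles modify KEAP1, so that NRF2 accumulates, pairs with a small MAF protein and binds antioxidant response elements near its target genes, where BACH1 can act as a repressor. The targets supply glutathione, recycle thioredoxin and peroxiredoxin, and clear quinones and heme. In melanoma these systems buffer oxidants that arise from melanin synthesis and drug exposure.

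Library totals ran from 9516687 to 11797788 estimated counts, and values below are CPM, each gene's counts divided by its library's total and rescaled alike in all libraries. Log2 fold changes and the folds made from them were fitted with TMM factors, which correct for composition, and so differ slightly from ratios of CPM. Between 12867 and 14427 genes reached 1 CPM in a library. Replicates of a group differed by little more than counting noise, their chi-square divided by its degrees of freedom being between 1.34 and 1.41. The labels do not say whether replicates were separate cultures, so errors and p-values measure only the spread between these libraries. Markers of the melanocyte lineage summed to between 11789 and 13785 CPM in 451Lu-R, with all 9 markers detected. In 1205Lu-R they summed to between 33.3 and 46.1 CPM, and SOX10 and TYR were at 0 in every library, so the lineage of this line was not shown by these markers. Immune markers summed to at most 1.61 CPM in any library. In bulk RNA, a change in the number of cells of a type and a change in RNA per cell cannot be told apart.

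RefSeq promoter windows (GRCh38.p14, 250 bases before to 50 after a start) were available for 7 of the 9 genes, all but HMOX1 and SLC7A11, in 10 windows. The core of the antioxidant response element, TGACNNNGC, was searched on both strands. It was found in 3 of the 10 windows, both of TXNRD1 and that of GCLM, and in 13.3% of all 35116 windows. The stricter form TGACTCAGC, which is contained in the core, was in none of the 10 windows and in 0.561% of all. Within 1000 bases upstream of the starts, TGACTCAGC was found for NQO1 and SQSTM1, in 2 of the 10 windows, against 1.42% of all. The sequences are shown because they hold these letters beside genes whose counts moved with corin, and capitals mark the match. A second match of the core in the first TXNRD1 window, TGACGGAGC on the minus strand, lies from base -8 to base 1 counted from the start and runs past the end of the stretch shown, so it is left in lower case. A match is not evidence of binding, and a window without a match says only that the letters were not there.
TXNRD1, chr12:104215529-104215778, plus strand, upstream of the gene: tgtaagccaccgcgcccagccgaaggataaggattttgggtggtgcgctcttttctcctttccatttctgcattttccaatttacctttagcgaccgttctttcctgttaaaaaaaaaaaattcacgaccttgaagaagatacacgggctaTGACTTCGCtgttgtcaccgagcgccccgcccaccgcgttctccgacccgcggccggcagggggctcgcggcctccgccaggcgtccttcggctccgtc
TXNRD1, site of the second window, chr12:104286920-104286948, plus strand: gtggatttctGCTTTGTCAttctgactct
GCLM, site, chr1:93909446-93909474, minus strand: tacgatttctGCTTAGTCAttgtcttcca
NQO1, site in an exon of the divergent transcript NQO1-DT, chr16:69726997-69727025, minus strand: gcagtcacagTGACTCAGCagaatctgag
SQSTM1, chr5:179820507-179820606, plus strand, in an intron: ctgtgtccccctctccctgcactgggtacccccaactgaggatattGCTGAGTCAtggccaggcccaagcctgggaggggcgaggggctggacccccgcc

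**Figure D1:**
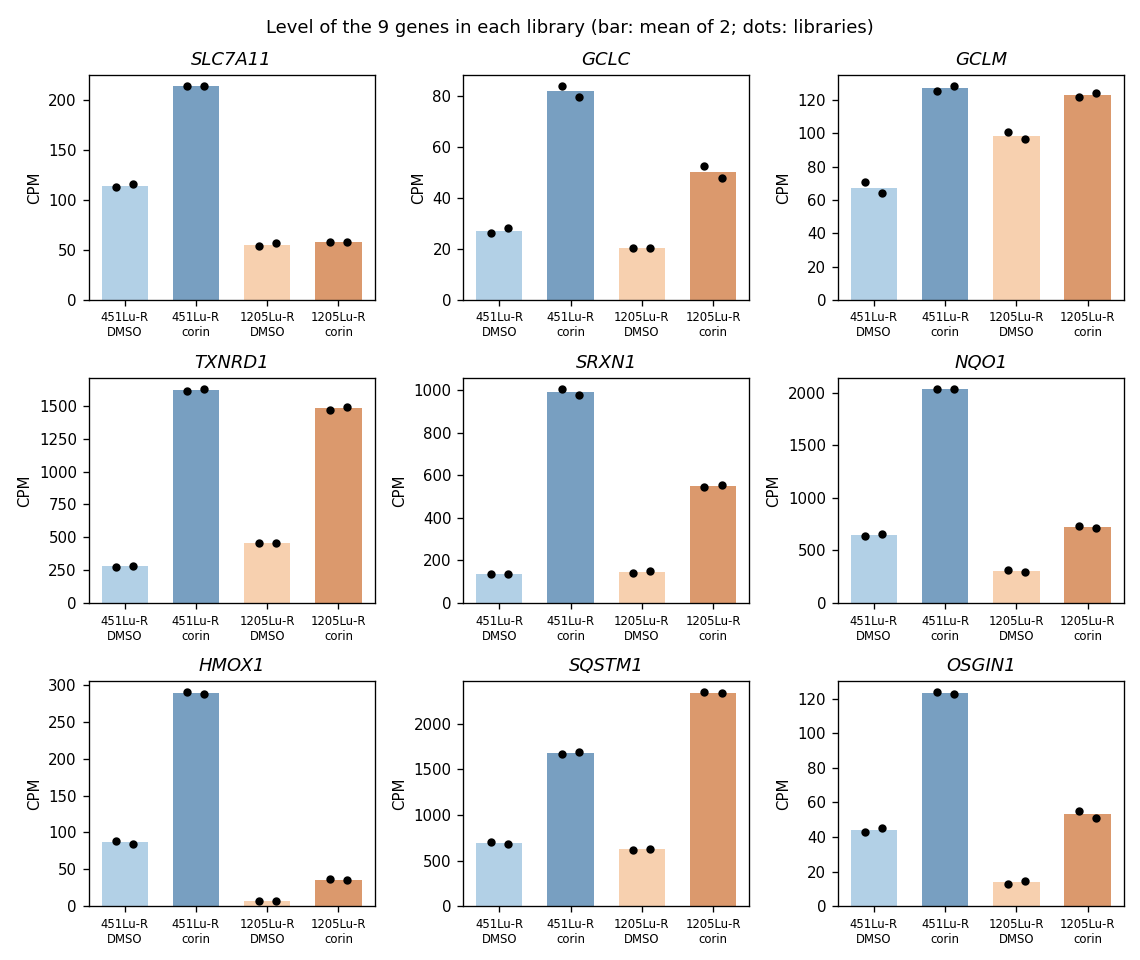
Level of each of the 9 genes in CPM (y axis, from 0) in the 4 groups (x axis). Dots are the 2 libraries of a group and bars their mean. All panels except that of SLC7A11 in 1205Lu-R show corin libraries above the DMSO libraries by more than the gap between replicates. The share of all genes that do so was not counted, so nothing is read from this.

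In 451Lu-R, all 9 genes were higher with corin, from 2.01-fold for GCLM and SLC7A11 to 7.83-fold for SRXN1. In 1205Lu-R, 8 of 9 were higher, from 1.19-fold for GCLM to 4.64-fold for HMOX1, and SLC7A11 was not. Genes called higher at an FDR under 0.05 made up 41.3% of the 14530 genes tested for 451Lu-R cells and 40.4% of the 14563 for 1205Lu-R cells, and since the counts had chosen the 9 genes nothing is read from their share. In 451Lu-R cells the calls over all genes were 6006 higher and 5606 lower, and with library totals alone they were 5527 and 6210; for 1205Lu-R cells they went from 5886 and 5510 to 6339 and 4978. None of the 9 was lower in either line, against 38.6% and 37.8% of genes called lower. At a fold change of 2 or more, 9 genes were called in 451Lu-R, against 22.2% of all genes higher and 13.3% lower, and 7 for 1205Lu-R cells, against 22.0% and 9.8%. GCLM and SLC7A11 passed 2-fold narrowly in 451Lu-R, each at 1.01 in log2. Both were at 0.91 in their lowest alternative of scaling, filter or model. With 1 library left out, they were as low as 0.93 and 0.98. All 9 genes passed the filter on low counts in both lines. The median log2 fold change of the 9 genes was 1.69 for 451Lu-R cells and 1.63 for 1205Lu-R cells, and that of all genes tested was 0.03 in each line. Together the 9 genes rose from 0.209% to 0.717% of a library of 451Lu-R cells and from 0.173% to 0.542% of one of 1205Lu-R cells, 3.43 and 3.14 times the DMSO level.

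SLC7A11 (chr4:138164097-138242349, minus strand), the light chain of the cystine importer, was at 113 and 116 CPM with DMSO and at 215 and 214 CPM with corin in the 451Lu-R cells. The 1205Lu-R cells had 53.8 and 56.9 CPM with DMSO and 57.6 and 57.7 CPM with corin. The log2 fold change was 1.01 ± 0.035 (SE) with 451Lu-R and -0.01 ± 0.057 with 1205Lu-R, the latter turning to 0.060 when only library totals were used for scaling. The groups stood far apart in 451Lu-R. In 1205Lu-R the corin libraries lay less than the gap between the DMSO libraries above them, and the gene was not called. The antisense gene SLC7A11-AS1 shares 865 exonic bases with it, and reads of the pair cannot be told apart without strand.

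GCLC (chr6:53497341-53616970, minus strand), the catalytic subunit of glutamate-cysteine ligase, which makes the rate-limiting step of glutathione synthesis, was at 26.4 and 28.1 CPM with DMSO and 84.3 and 79.7 CPM with corin in the 451Lu-R cells. Levels in 1205Lu-R cells were 20.3 and 20.2 CPM with DMSO and 52.6 and 47.9 CPM with corin. These are log2 fold changes of 1.69 ± 0.068 and 1.23 ± 0.079. Its exons overlap those of GCLC-AS1, on the opposite strand, and over a longer stretch those of ENSG00000231683 on the same strand, so the split of counts is uncertain. Every corin library was above every DMSO library of its line.

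GCLM (chr1:93885199-93909456, minus strand), the modifier subunit of the same enzyme, was at 70.9 and 64.0 CPM with DMSO and 125 and 129 CPM with corin in the 451Lu-R cells. Its 1205Lu-R values were 101 and 96.3 CPM with DMSO and 122 and 124 CPM with corin. The log2 fold change was 1.01 ± 0.049 with 451Lu-R and 0.25 ± 0.041 with 1205Lu-R. The corin levels of the lines were close, and the DMSO level was higher in 1205Lu-R.

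TXNRD1 (chr12:104215779-104350307, plus strand), the cytosolic thioredoxin reductase, was at 276 and 283 CPM with DMSO and at 1612 and 1631 CPM with corin in the 451Lu-R cells. The 1205Lu-R cells had 459 and 454 CPM with DMSO and 1469 and 1495 CPM with corin. The log2 fold changes were 2.64 ± 0.022 and 1.63 ± 0.023. The order was the same as for GCLM, with 451Lu-R lowest under DMSO and highest under corin.

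SRXN1 (chr20:646615-653200, minus strand), sulfiredoxin, which restores overoxidized peroxiredoxins, was at 134 and 138 CPM with DMSO and 1008 and 979 CPM with corin in the 451Lu-R cells. Levels in 1205Lu-R cells were 139.8 and 148 CPM with DMSO and 546 and 554 CPM with corin. The log2 fold changes were 2.97 ± 0.028 and 1.86 ± 0.034. The lines began at nearly the same level and ended apart. A same-strand gene, ENSG00000270299, shares 2292 of the 2528 exonic bases of SRXN1, so how counts were split between the pair is uncertain.

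NQO1 (chr16:69706996-69726668, minus strand), which reduces quinones, was at 634 and 657 CPM with DMSO and 2037 CPM in both corin libraries of the 451Lu-R cells. Its 1205Lu-R values were 313 and 298 CPM with DMSO and 732 and 715 CPM with corin. The log2 fold changes were 1.76 ± 0.020 and 1.17 ± 0.030. A gene on the opposite strand, ENSG00000261602, shares 575 exonic bases with NQO1. The corin level of 1205Lu-R was 1.12 times the DMSO level of 451Lu-R.

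HMOX1 (chr22:35380361-35394214, plus strand), heme oxygenase 1, which breaks down heme, was at 88.4 and 84.9 CPM with DMSO and 290.4 and 287 CPM with corin in the 451Lu-R cells. The 1205Lu-R cells had 7.14 and 7.63 CPM with DMSO, from 79 and 81 counts, and 36.7 and 35.5 CPM with corin. The log2 fold changes were 1.83 ± 0.035 and 2.21 ± 0.107. Every library of 451Lu-R was above every library of 1205Lu-R, whatever the treatment.

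SQSTM1 (chr5:179806398-179838078, plus strand), the autophagy receptor p62, which also binds KEAP1, was at 699 and 685 CPM with DMSO and 1669.8 and 1693 CPM with corin in the 451Lu-R cells. Levels in 1205Lu-R cells were 619 and 629.8 CPM with DMSO and 2349 and 2334 CPM with corin. The log2 fold changes were 1.38 ± 0.019 and 1.83 ± 0.016. Of the 9 genes, it alone had its highest level in 1205Lu-R. Its exons overlap those of MRNIP and MGAT4B on the opposite strand, and those of OSGIN1 overlap MLYCD on the same strand.

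OSGIN1 (chr16:83931311-83966332, plus strand), an oxidative stress-induced growth inhibitor, was at 43.0 and 45.0 CPM with DMSO and 124 and 123 CPM with corin in the 451Lu-R cells. Its 1205Lu-R values were 12.7 and 14.8 CPM with DMSO and 55.2 and 51.1 CPM with corin. The log2 fold changes were 1.59 ± 0.051 and 1.88 ± 0.089. The DMSO libraries of 451Lu-R lay below the corin libraries of 1205Lu-R.

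Per kilobase of exon, NQO1 had the highest level of the 9 genes in 451Lu-R with DMSO, at 217 ± 5.44 CPM per kb (SD, n = 2), and GCLC the lowest, at 3.16 ± 0.134. The length used was that of all annotated exons merged, not of the transcripts expressed, so these ranks depend on the annotation. In CPM alone SQSTM1 was above NQO1 in that group, at 692 against 646. With corin, NQO1 reached 686 ± 0.0926 and SRXN1 393 ± 8.24 CPM per kb in that line. In 1205Lu-R with corin, SQSTM1 was highest, at 311 ± 1.45 CPM per kb, and GCLC lowest, at 5.83 ± 0.391, next to SLC7A11 at 5.98 ± 0.0105. These last values differed by less than the SD of GCLC.

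**Figure D2:**
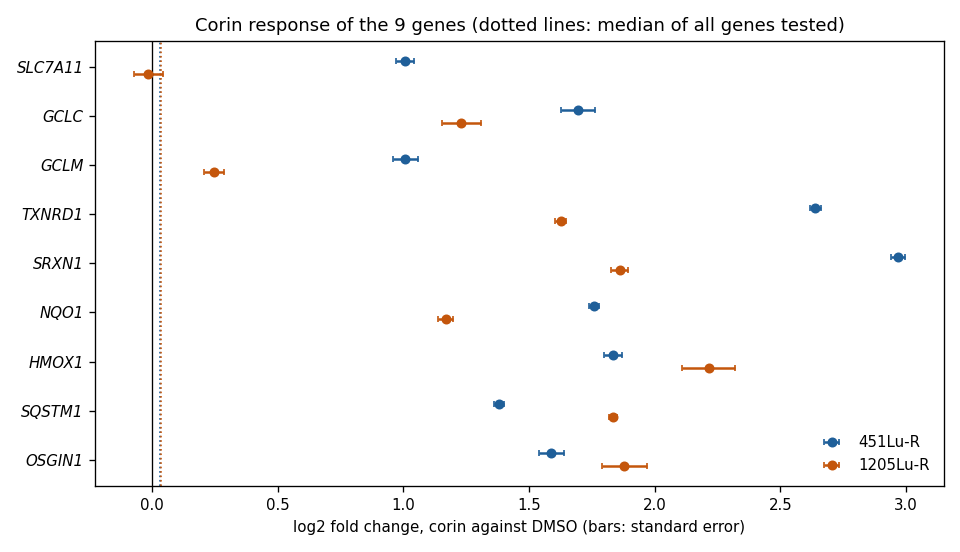
Log2 fold change of corin against DMSO (x axis) for the 9 genes (y axis) in 451Lu-R (blue) and 1205Lu-R (orange), with standard errors as bars. Dotted lines mark the median of all genes tested, 0.03 in each line; SRXN1 and TXNRD1 lie farthest right in 451Lu-R and SLC7A11 lies at the median in 1205Lu-R.

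The change from DMSO to corin differed between the lines for all 9 genes at an FDR under 0.05 of the interaction term. Of all 16062 genes tested, 22.6% were called higher and 27.1% lower. These were 3625 and 4359 genes, and scaling by library totals alone turned them into 5344 and 3003. The counts for the 9 genes at that FDR were as before. Since the 9 genes were chosen with these libraries in view, nothing is read from their number. The change was smaller in 1205Lu-R for 6 genes and larger for 3. At a difference of 2-fold or more, 3 of the 9 genes were lower, against 9.46% of genes, and 0 higher, against 9.34%. That count depended on the scaling. With library totals alone SRXN1 (-0.94) and SLC7A11 (-0.85) were short of 2-fold, and TXNRD1 was at -0.84 in its weakest alternative. On the log2 scale, 1205Lu-R minus 451Lu-R, the difference was -1.15 ± 0.055 (SE) for SRXN1, -1.06 ± 0.065 for SLC7A11 and -1.05 ± 0.033 for TXNRD1. It was -0.80 ± 0.068 for GCLM, -0.63 ± 0.033 for NQO1 and -0.50 ± 0.106 for GCLC. The larger changes were those of SQSTM1, at 0.42 ± 0.022, HMOX1, at 0.34 ± 0.116, and OSGIN1, at 0.25 ± 0.104. Of these 3, only SQSTM1 was still called when DMSO replicate 1 of either line was left out. The 9 log2 fold changes of the lines had a Pearson's r of 0.61 and a Spearman's rho of 0.57, over genes that share libraries, and this is a description.

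With DMSO alone, 3 of the 9 genes were higher in 1205Lu-R than in 451Lu-R, against 41.0% of 14104 genes, and 5 were lower, against 41.5%. TXNRD1 (log2 difference 0.82 ± 0.027), GCLM (0.65 ± 0.054) and SRXN1 (0.19 ± 0.041) were the higher ones. HMOX1 was lower by far, at -3.45 ± 0.086, followed by OSGIN1 (-1.58 ± 0.093), NQO1 (-0.97 ± 0.028), SLC7A11 (-0.94 ± 0.051) and GCLC (-0.32 ± 0.091). SQSTM1 was not called (-0.04 ± 0.023). With library totals alone, SRXN1 (0.083) was no longer called and SQSTM1 (-0.15) was called lower. At 2-fold or more, 2 of the 9 were lower, against 21.8% of genes, and 0 higher, against 19.6%. With library totals alone SLC7A11 (-1.05) was beyond 2-fold as well, and NQO1 was at -1.08 in its lowest alternative.

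Several of the genes work with a partner, and their ratio to it within a library does not depend on the library's total. The level of such a ratio depends on the exonic lengths used, and its change between treatments does not. Counts per kilobase of GCLC were 0.235 and 0.276 of those of GCLM with DMSO and 0.423 and 0.390 with corin for the 451Lu-R cells. The ratio of the 1205Lu-R cells went from 0.127 and 0.132 to 0.272 and 0.243. The catalytic subunit stood higher relative to the modifier with corin in both lines, 1.59 and 1.99 times the DMSO ratio.
SLC7A11 per SLC3A2, the heavy chain of the same importer, went from 0.371 and 0.362 to 0.449 and 0.450 in 451Lu-R cells. For 1205Lu-R cells it went from 0.130 and 0.134 to 0.105 and 0.109, so the ratio moved up in the former and down in the latter. TXNRD1 per TXN, its substrate thioredoxin, reached 4.79 times its DMSO value in 451Lu-R cells and 2.93 times in 1205Lu-R cells. SRXN1 per PRDX1, a peroxiredoxin it repairs, reached 2.49 and 2.52 times.

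**Figure D3:**
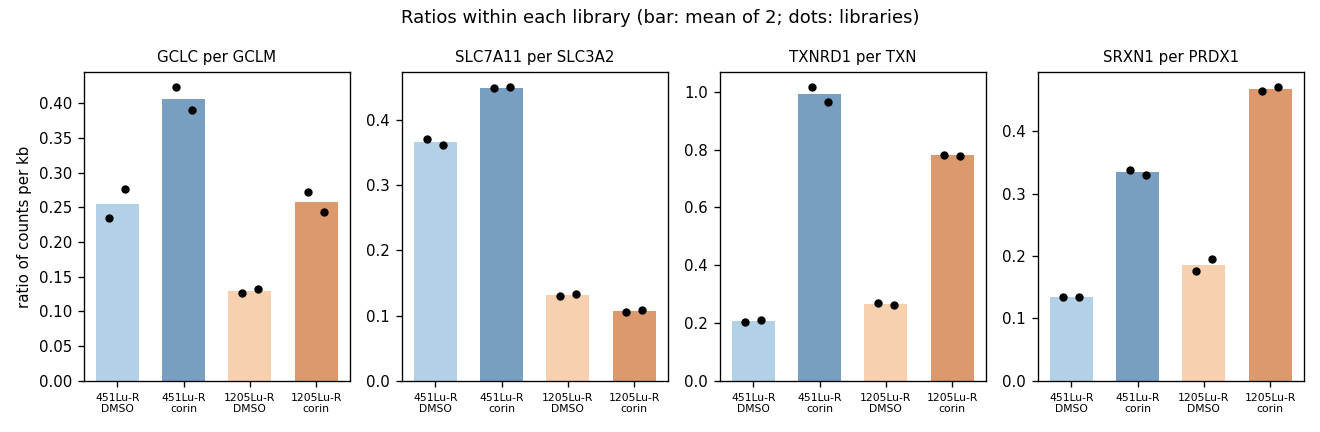
Ratios of counts per kilobase of exon (y axes, from 0) between each gene and its partner in the 4 groups; dots are the 2 libraries and bars their mean. SLC7A11 per SLC3A2 is the only panel in which the lines move in opposite directions.

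NFE2L2, the gene of NRF2, was at 148 and 156 CPM with DMSO and 190.1 and 184 CPM with corin in 451Lu-R cells. For 1205Lu-R cells it went from 126 and 130.0 CPM to 179 and 169.9 CPM. It rose by 0.40 ± 0.04 (log2, SE; adjusted p = 4.7e-09, edgeR) and 0.37 ± 0.04 (adjusted p = 1.4e-08, edgeR), and no difference between the lines was detected (-0.07, adjusted p = 0.36, edgeR), although with library totals alone the difference turned to 0.14 and was called. KEAP1 fell in both lines, by 0.28 (adjusted p = 0.00047, edgeR) and by 0.73 (adjusted p = 2.4e-10, edgeR). BACH1 rose by 0.67 in 451Lu-R cells (adjusted p = 1.8e-08, edgeR) and had a log2 fold change of 0.08 in 1205Lu-R cells (adjusted p = 0.13, edgeR). RBX1, the ring subunit of the ligase, fell by 1.13 in 451Lu-R cells (adjusted p = 2.9e-13, edgeR) and by 1.08 in 1205Lu-R cells (adjusted p = 6.0e-12, edgeR). The small MAF gene MAFK rose by 1.32 and 0.63 at an FDR under 0.05 (edgeR) in each line. MAFG, another small MAF gene, went from 87.7 and 85.0 down to 50.1 and 46.8 CPM in 451Lu-R cells. For 1205Lu-R cells its values were 77.8 and 76.4 CPM with DMSO and 88.7 and 82.6 CPM with corin. NFE2L3, a relative of NRF2, went from 14.0 and 9.62 to 66.0 and 66.9 CPM in 451Lu-R cells, a log2 fold change of 2.57 ± 0.10 (adjusted p = 7.8e-15, edgeR). It shares 1207 exonic bases with HNRNPA2B1 on the opposite strand. Over the 13 listed regulators, 7 were higher and 5 lower in 451Lu-R cells, and 4 higher and 4 lower in 1205Lu-R cells, with medians of 0.13 and 0.01. Of all genes tested, 41.3% and 40.4% were called higher in these lines and 38.6% and 37.8% lower.

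**Figure D4:**
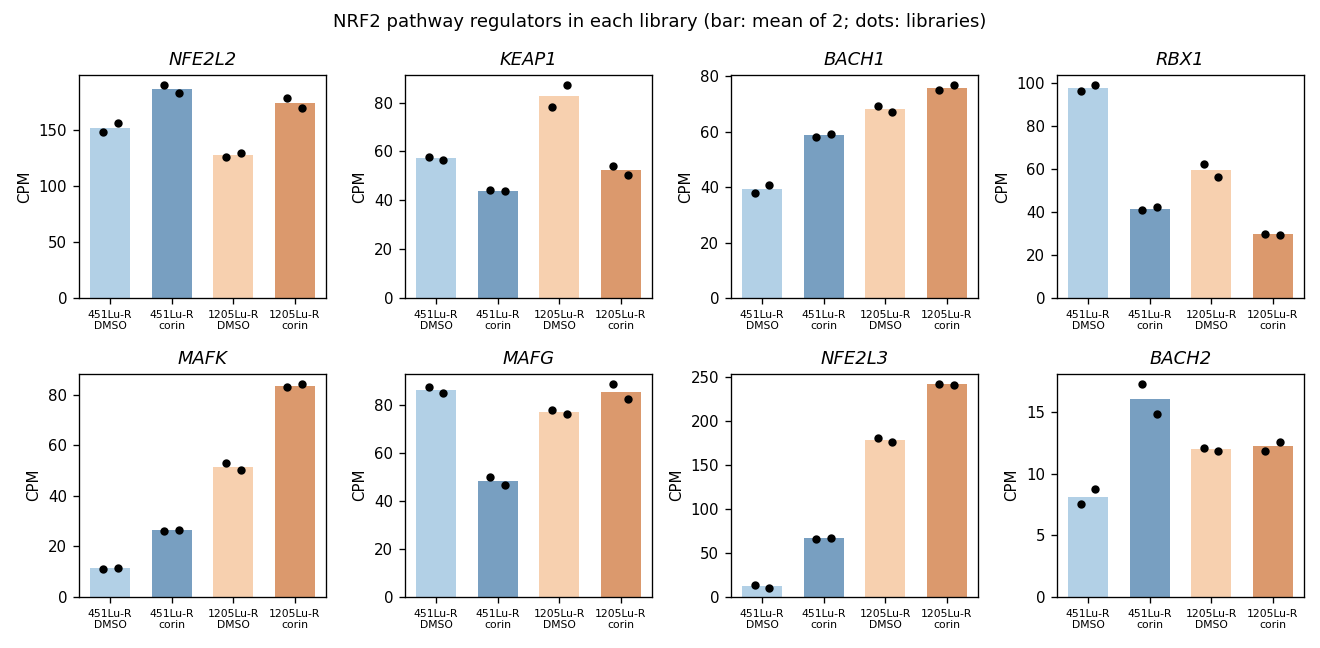
Level in CPM (y axes, from 0) of 8 regulators of the pathway in the 4 groups; dots are the 2 libraries and bars their mean. RBX1 is lower with corin in both lines, and NFE2L3 and MAFK are higher in 1205Lu-R than in 451Lu-R at either treatment.

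Beyond the 9 genes, 123 genes in 9 lists of redox and neighbouring functions were examined, of which 120 were in the table; GPX3, GSTM5 and SOD2 were not analysed here. Genes said below to have risen or fallen passed an FDR under 0.05 (edgeR), and 2 values side by side are those of 451Lu-R and 1205Lu-R, in log2. A value for a single line does not mean that the other line was unchanged. In 451Lu-R, 68 of 108 tested were higher and 28 lower, with a median log2 fold change of 0.34. In 1205Lu-R, 70 of 107 were higher and 27 lower, with a median of 0.45. Of these genes 54 were higher in both lines and 21 lower in both.
Detoxification enzymes and conjugate transporters were higher for 23 of 31 genes tested with 451Lu-R and 24 of 30 with 1205Lu-R. In the same list, 7 and 4 were lower. UGDH went from 209 and 203 down to 22.8 and 21.9 CPM in 451Lu-R cells. For 1205Lu-R cells it went from 69.9 and 66.8 to 43.7 and 43.4 CPM. ABCG2, a drug efflux pump, went from 2.80 and 3.48 to 25.8 and 27 CPM in 1205Lu-R cells, which was 7.99-fold (adjusted p = 2.8e-14, edgeR). AKR1B10, another aldo-keto reductase, rose 17.5-fold there, from 13 and 9 to 190 and 199 counts. AKR1C3, an aldo-keto reductase, was at 0 in both DMSO libraries of 1205Lu-R; its corin libraries held 79 and 93 counts, which is at least 30.1-fold higher against a floor of 3 counts per library. AKR1C2 was at 0 in both DMSO libraries of 451Lu-R, and the 46 and 33 counts of its corin libraries make it at least 12.2-fold higher. In the same line AKR1C1 went from 1 and 0 to 32 and 21 counts, and GSTA1, a glutathione transferase, from 1 and 0 to 29 and 32. Counts of the AKR1C genes are uncertain because the copies are near-identical.

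Genes of glutathione synthesis, recycling and use were higher for 8 and lower for 6 of 16 genes tested with 451Lu-R, and higher for 8 and lower for 5 of 15 with 1205Lu-R. GPX8, a peroxidase of the endoplasmic reticulum, fell by 3.12 in 451Lu-R cells (adjusted p = 1.1e-14, edgeR) and by 2.43 in 1205Lu-R cells (adjusted p = 3.9e-21, edgeR). GLRX, glutaredoxin, rose by 2.97 in 451Lu-R (adjusted p = 2.0e-14, edgeR). In 1205Lu-R cells GLRX went from 26.0 and 23.0 to 47.8 and 53.1 CPM. CHAC2, which degrades glutathione, rose by 1.61 and 1.88, and GLRX3 fell by 1.04 in 1205Lu-R cells. GGT1, a gamma-glutamyltransferase, rose from 1 and 0 to 50 and 19 counts in 451Lu-R cells. Thioredoxins and peroxiredoxins were split, 6 higher and 5 lower of 12 with 451Lu-R, and 7 and 5 with 1205Lu-R. PRDX1 rose by 1.65 in 451Lu-R (adjusted p = 4.2e-23, edgeR) and went from 526 and 508 to 783 and 784 CPM in 1205Lu-R. TXNRD2, the mitochondrial counterpart of TXNRD1, fell to 0.392 and 0.499 of its DMSO level. TXNIP, an inhibitor of thioredoxin, rose by 2.55 and 1.53, and TXNRD3, another reductase of the family, by 1.70 in 1205Lu-R cells.

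NADPH-producing enzymes were higher for 3 of 8 genes tested with 451Lu-R and 5 of 8 with 1205Lu-R, with 2 and 3 lower. ME1, malic enzyme, rose by 0.71 and 1.07. PGLS, 6-phosphogluconolactonase, fell by 0.75 and by 1.11, and IDH2, the mitochondrial isocitrate dehydrogenase, rose by 0.81 in 1205Lu-R cells. In heme and iron handling, 7 of 8 genes were higher and none lower in each line. SLC48A1, a heme transporter, rose by 2.69 and 1.66, and ALAS1, which starts heme synthesis, by 0.93 in 451Lu-R cells. FECH, the last enzyme of that pathway, rose by 0.96 in 451Lu-R cells, and BLVRA, biliverdin reductase A, by 0.95 in 1205Lu-R cells. Of superoxide dismutases and catalase, 1 of 2 tested was higher in 451Lu-R cells, and 2 of 3 were higher and 1 lower in 1205Lu-R cells. CAT, catalase, rose by 1.42 in 451Lu-R cells (adjusted p = 7.2e-17, edgeR) and by 0.95 in 1205Lu-R cells (adjusted p = 1.3e-14, edgeR). SOD3, the extracellular dismutase, rose by 0.61 in 1205Lu-R cells.

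ATF4 response genes, a stress program that also drives SLC7A11, were higher for 7 of 10 tested with 451Lu-R and 10 of 11 with 1205Lu-R. In each line 1 was lower. ATF3, a stress-induced transcription factor, rose by 2.99 and 2.32. ASNS, asparagine synthetase, rose by 2.67 and 1.77, and DDIT4, an inhibitor of mTORC1, by 2.65 and 1.77. Among autophagy receptors and the LC3 family, 6 of 8 were higher in 451Lu-R cells and 4 in 1205Lu-R cells, with 2 and 4 lower. MAP1LC3B, of the LC3 family, rose by 1.19 and 0.86. GABARAP fell by 0.83 in 451Lu-R and went from 72.9 and 73.4 to 47.2 and 48.7 CPM in 1205Lu-R. OPTN, an autophagy receptor, rose by 0.51 in 451Lu-R cells. In 1205Lu-R cells NBR1 fell by 1.41, and in 451Lu-R cells it went from 129.8 and 126 to 92.2 and 92.9 CPM. GABARAPL1 rose by 0.44 and 1.13.

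With DMSO alone, 36 of 104 list genes tested were higher in 1205Lu-R than in 451Lu-R, against 41.0% of all genes tested. Lower were 56, against 41.5%. Differences here are log2, 1205Lu-R minus 451Lu-R, each at an FDR under 0.05 (edgeR). Among regulators, NFE2L3 (15.99-fold), MAFK (2.30), BACH1 (0.90) and KEAP1 (0.63) were higher and NFE2L2 (-0.14) lower. CHAC1 (3.74) and GSTM3 (4.57) were higher, and GGT7 (-2.72), GSTA4 (-3.78), TXNIP (-4.22), PRDX2 (-2.10) and TXN2 (-1.68) lower. OPLAH, 5-oxoprolinase, had 246 and 218 counts in 451Lu-R and 0 in both libraries of 1205Lu-R, which is at least 81.5-fold lower against a floor of 3 counts per library. ABCC3, a conjugate transporter, had 0 and 1 counts in 451Lu-R and 122 in both libraries of 1205Lu-R, and SOD3 had 1 and 2 against 61 and 48. IDH1 (-2.55) and IDH2 (-1.53), FTH1 (-1.86), the ferritin heavy chain, ALAS1 (-1.11), FECH (-1.04) and SOD1 (-0.20) were lower. Lower too were CTH (-3.26), PHGDH (-2.77), GABARAP (-1.53), GABARAPL2 (-0.61) and NBR1 (-0.56).

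**Figure D5:**
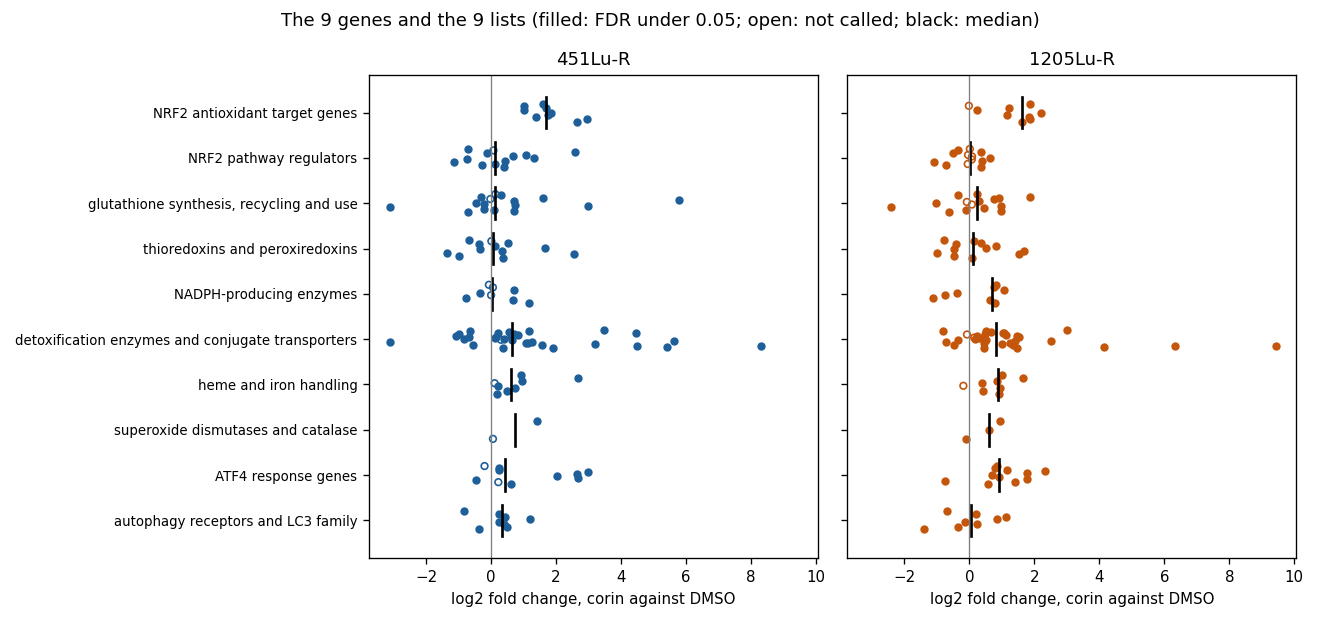
Log2 fold change of corin against DMSO (x axis) for the 9 genes and for each gene of the 9 lists (y axis) in each line. Filled dots passed an FDR under 0.05, open dots did not, and black bars are medians; values of genes without counts in a group depend on the prior count. The 9 genes have the highest median, 1.69 and 1.63, having been chosen with these values known.

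The genes whose levels followed each of the 9 most closely over the 8 libraries were sought among 14421 genes, by the root mean square difference of centred log2 CPM. SRXN1 was nearest to DDIT4 (0.126) and ASNS (0.128), both of the ATF4 list. NQO1 was nearest to PLXNA3 (0.0616) and SGK1 (0.105), GCLM to BPNT2 (0.0552) and DOCK9 (0.0577), and SQSTM1 to MFSD6 (0.0825) and EGR2 (0.108). GCLC was nearest to GNAI1 (0.086) and VPS8 (0.111), and SLC7A11 to MOB1B (0.0998) and SPSB1 (0.0998). TXNRD1 was nearest to RHPN2 (0.178) and RIMS3 (0.181), OSGIN1 to KDM1B (0.133) and DHFR2 (0.162), and HMOX1 to MAF (0.209) and BMF (0.241). No gene had another of the 9 as its nearest, and the closest pair among them was NQO1 and OSGIN1, at 0.281.

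Markers of cell state moved with the treatment as well, and within a list they did not all move one way. The summed melanocyte markers of 451Lu-R went from between 13712 and 13785 CPM with DMSO to between 11789 and 11835 CPM with corin. MITF, the lineage's master regulator, went from 782 and 804 to 287 and 286 CPM and SOX10 from 773 and 743 to 232 and 236 CPM, while DCT went from 1666 and 1669 to 2692 and 2658 CPM. Summed markers of undifferentiated melanoma went from 8.02 and 8.07 CPM to between 371 and 379 CPM in 451Lu-R, of which NGFR held 355 and 348 CPM. In 1205Lu-R that sum went from between 1251 and 1265 CPM to between 803 and 815 CPM. There AXL went from 948 and 976 to 480.1 and 471 CPM and WNT5A from 199.6 and 188 to 37.2 and 37.9 CPM, but NGFR from 5.60 and 6.12 to 206 and 199 CPM. Fibroblast markers went from between 46.7 and 50.1 CPM to between 148 and 150.3 CPM in 451Lu-R, with LUM and COL1A1 holding most of the sum. In 1205Lu-R they went from between 139 and 143 CPM to between 93.7 and 94.0 CPM, which followed PDGFRB, while COL1A1 went from 1.27 and 1.04 to 8.62 and 9.09 CPM. The part of these markers in the levels of the 9 genes was not tested.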

How the data were processed

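RNA-Seq of 451Lu-R and 1205Lu-R cells was analysed in 8 libraries. According to the series text, the authors removed adapters and low-quality bases (Trimmomatic) and then estimated gene-level expression with Salmon and the transcripts of GENCODE 32; tool versions and the strand setting were not given in the sources used here. The authors deposited the estimated counts (expected counts) without normalization. The tables for PLX4032 hold only the authors' own comparisons, as log2 fold changes and adjusted p-values, and were not used.

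Counts were rounded and fitted with edgeR 4.0.16 in R 4.3.3 (filterByExpr, TMM, glmQLFit and glmQLFTest, 2-sided, Benjamini-Hochberg adjustment over all genes tested). Each line was fitted alone, and the difference between lines was an interaction term over the 8 libraries. Standard errors are the log2 fold change divided by the root of F. Names, exon overlaps and exonic lengths came from GENCODE 44, which named 34052 of 34228 genes. Promoters came from RefSeq. The 9 genes and the lists were chosen with earlier results of these data known. From each list, at most 3 genes per comparison were named, those with the largest change among genes at an FDR under 0.05, a mean of at least 1 CPM and no overlap between groups; NFE2L2, KEAP1 and BACH1 were always named. One gene that this rule selects is not reported here. As alternatives, DESeq2 1.42.0 replaced edgeR, RLE factors or plain library totals replaced TMM, the filter was dropped or set to a mean of 1 CPM, the replicate number was added as a block, the 8 libraries were fitted together, a 2-fold change was required, and each library was left out. The fits were tested on simulated data.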

Additional observations from a re-analysis of the deposited data

Results flagged for a closer look

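All results here were flagged because the change with corin differed between 1205Lu-R and 451Lu-R at an FDR under 0.05 of the interaction term (edgeR); values are log2, 1205Lu-R minus 451Lu-R. For the 9 NRF2 targets, whose choice used these counts, they were -1.15 for SRXN1, -1.06 for SLC7A11, -1.05 for TXNRD1, -0.80 for GCLM, -0.63 for NQO1, -0.50 for GCLC, 0.42 for SQSTM1, 0.34 for HMOX1 and 0.25 for OSGIN1.

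Of the list genes, 6 were called in opposite directions in the lines. MGST2 (2.58), PIR (2.06) and GPX4 (0.62) were lower with corin in 451Lu-R and higher in 1205Lu-R. OPTN (-0.88), TAX1BP1 (-0.40) and GPX1 (-0.23) were higher in 451Lu-R and lower in 1205Lu-R. PIR, GPX4, TAX1BP1 and GPX1 were singled out after their values were seen.

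Among regulators, the difference was -2.24 for NFE2L3, -1.17 for BACH2, -0.63 for BACH1, -0.49 for KEAP1 and 0.77 for MAFG. In the glutathione and thioredoxin lists it was -2.04 for GLRX, -0.85 for GLRX3, 0.72 for GGT7, 1.33 for TXNRD3, -1.16 for PRDX1 and -1.06 for TXNIP. NADPH enzymes had 0.83 for IDH2, -0.80 for TKT and 0.66 for IDH1. UGDH had 2.34, and AKR1C3 a fitted value of 4.93, which rests on a group without counts and is no bound. Heme and iron genes had -1.06 for SLC48A1, 0.68 for FTL and -0.42 for BLVRB, and CAT had -0.51. The ATF4 list had -1.38 for SESN2, 1.14 for DDIT3 and 1.01 for CTH, and the autophagy list -1.07 for NBR1 and 0.65 for GABARAPL1.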

How the results depend on the processing

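With a fold change of 2 or more required, list genes called higher and lower became 29 and 5 for 451Lu-R cells, 25 and 6 for 1205Lu-R cells, 9 and 8 for the difference between lines, and 9 and 27 between lines under DMSO. Over all genes these counts became 3232 and 1935, 3211 and 1427, 1500 and 1519, and 2759 and 3078. Of the 9 NRF2 targets, 0 were then higher and 3 lower for the difference, and 0 higher and 2 lower under DMSO. These numbers depended on the scaling. With library totals alone, the difference was -0.94 for SRXN1 and -0.85 for SLC7A11, short of 2-fold. Under DMSO, SLC7A11 was then at -1.05, beyond 2-fold. Scaling by library size only moved the median of all genes by 0.21 for the difference and by -0.11 under DMSO (log2). List genes called with a positive difference, 1205Lu-R minus 451Lu-R, then numbered 47, and the difference for NFE2L2 turned to 0.14. Such a difference can be a larger rise or a smaller fall in 1205Lu-R. SLC7A11 in 1205Lu-R, which was not called, turned to 0.060 with library size only and to 0.000351 with the 1 CPM filter, and ran from -0.070 to 0.0061 when 1 library was left out, the highest without DMSO replicate 2. Targets with a larger change in 1205Lu-R ranged from 1 to 3 when 1 library was left out, with 1 when DMSO replicate 1 of either line was left out, SQSTM1; the cause was not tested. The lone library of a group was then assumed to vary like the others.

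Libraries with the same replicate number deviated with a correlation of 0.013 among 451Lu-R libraries and -0.11 among those of 1205Lu-R, so the numbers were not taken as pairs. A replicate block gave 68 higher and 28 lower list genes for 451Lu-R cells, 70 and 27 for 1205Lu-R cells, 30 and 40 for the difference and 36 and 56 under DMSO, and 2 targets with a larger change in 1205Lu-R instead of 3. Crossing the replicate numbers in 1205Lu-R, chosen after seeing the data, gave 68 higher and 27 lower list genes. Genes with few counts limit precision.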
